A study of Mus musculus with 36 samples.

Results

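The comparison described here asks whether a high-fat, high-sugar diet changed hypothalamic gene expression differently in 2 mouse strains. It compares 24 of the 36 libraries of the study. Of these, 12 are from NZO/HlLtJ (NZO), an inbred model of obesity and diabetes, and 12 from CAST/EiJ (CAST), a wild-derived inbred strain. In each strain 6 libraries came from mice on the control diet (10% fat) and 6 from mice on the high-fat, high-sugar (HFHS) diet (44% fat), with 3 females and 3 males per diet. The labels name added fiber for both diets. The labels name no engineered allele and no drug. Mice started their diet when 6 weeks old, and the hypothalamus was collected when they were 15 weeks old. The measure is the HFHS minus control change in NZO minus the same change in CAST, with the sexes weighted equally, and is called the strain difference below. A value above 0 means that HFHS libraries stood higher relative to controls in NZO than in CAST. The labels do not say whether libraries of a group came from separate mice, so p-values measure the spread between these samples, which may be technical.

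The hypothalamus senses fuel stores and sets feeding, heat production and pituitary output. Its neurons sit among astrocytes, myelinating oligodendrocytes, microglia, tanycytes and blood vessels, and glial and peptide genes there are known to respond to rich diets. Because the libraries are from whole tissue, fewer cells of a type and less RNA per cell cannot be told apart.

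Library totals over the 24 samples ran from 25251560 to 47250454 expected counts. Xist and Ddx3y followed the labelled sex in all 12 female and 12 male libraries. One library stood furthest apart: CAST control female 1 held 2570 CPM (counts scaled to library size) in the summed pituitary markers. CAST control male 1 held 360 CPM, the other CAST controls 86.8 to 113 CPM and the remaining 18 libraries 66.5 to 111 CPM. In CAST control female 1 log2 levels fell by 0.173 for each doubling of transcript length, whereas this slope lay between -0.042 and 0.048 in the other 23. Strain differences of named genes, taken over both sexes, are therefore given with and without CAST control female 1. CAST control male 1 was kept in both fits. It was also the lowest CAST control in the summed heat shock genes (5750 CPM) and myelin genes (2340 CPM). In addition, NZO control female 1 and male 1 were the lowest of the 6 NZO controls in vascular markers, at 288 and 226 CPM summed over pericyte, vascular muscle and fibroblast genes against 383 to 486.

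The strain difference passed the edgeR quasi-likelihood test (Benjamini-Hochberg adjusted p under 0.05) for 361 of 20053 genes tested, or 1.8%. Of these, 193 were higher and 168 lower. Their median size was 0.45 on the log2 scale, and the smallest adjusted p was 0.00285. Leaving out CAST control female 1, the test called 259 of 20446 genes (1.27%), 129 higher and 130 lower. The 2 lists shared 210 genes, 58.2% of the longer and 81.1% of the shorter, all with the same direction. In the longer list, the genes that were higher had a median transcript length of 1094 bases and those lower 2355, against 1584 over all tested genes. With that library left out the medians were 1298.5, 2348 and 1579 bases. An offset that removed each library's trend on transcript length left 254 genes called, and 228 when CAST control female 1 was left out as well. Fitted to the 24 libraries alone, the test called 234 genes, and 412 when CAST control female 1 was left out as well.

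Most of the called genes combined 2 modest changes of opposite sign. Among the 361 genes, 187 had an estimate above 0 in NZO and below 0 in CAST, 165 had the reverse, and 9 had the same sign in both strains. Opposite signs thus covered 97.5% of called genes and 59.7% of all tested genes. The difference is built from the 2 changes, so these shares are descriptions. The diet test within NZO called 23 of the 361 genes and that within CAST called 20, with 1 gene, H1f0, called in both and 319 in neither. Across all genes the diet test called 29 in NZO (0.145%; 21 higher, 0.105%, and 8 lower, 0.0399%) and 24 in CAST (0.12%; 8 higher, 0.0399%, and 16 lower, 0.0798%). With CAST control female 1 left out it called 98 in NZO (0.479%; 58 higher, 0.284%, and 40 lower, 0.196%) and 9 in CAST (0.044%; 3 higher, 0.0147%, and 6 lower, 0.0293%). The common biological coefficient of variation was 12.1% with that library and 10.4% without it. The 2 diet changes share no library. Across the 15426 genes with a mean of at least 1 CPM, they had a Spearman rho of -0.315, and of -0.354 over 15422 genes without CAST control female 1. The same measure between NZO and the third strain, C57BL/6J, was 0.030, and between CAST and C57BL/6J -0.004.

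**Figure D1:**
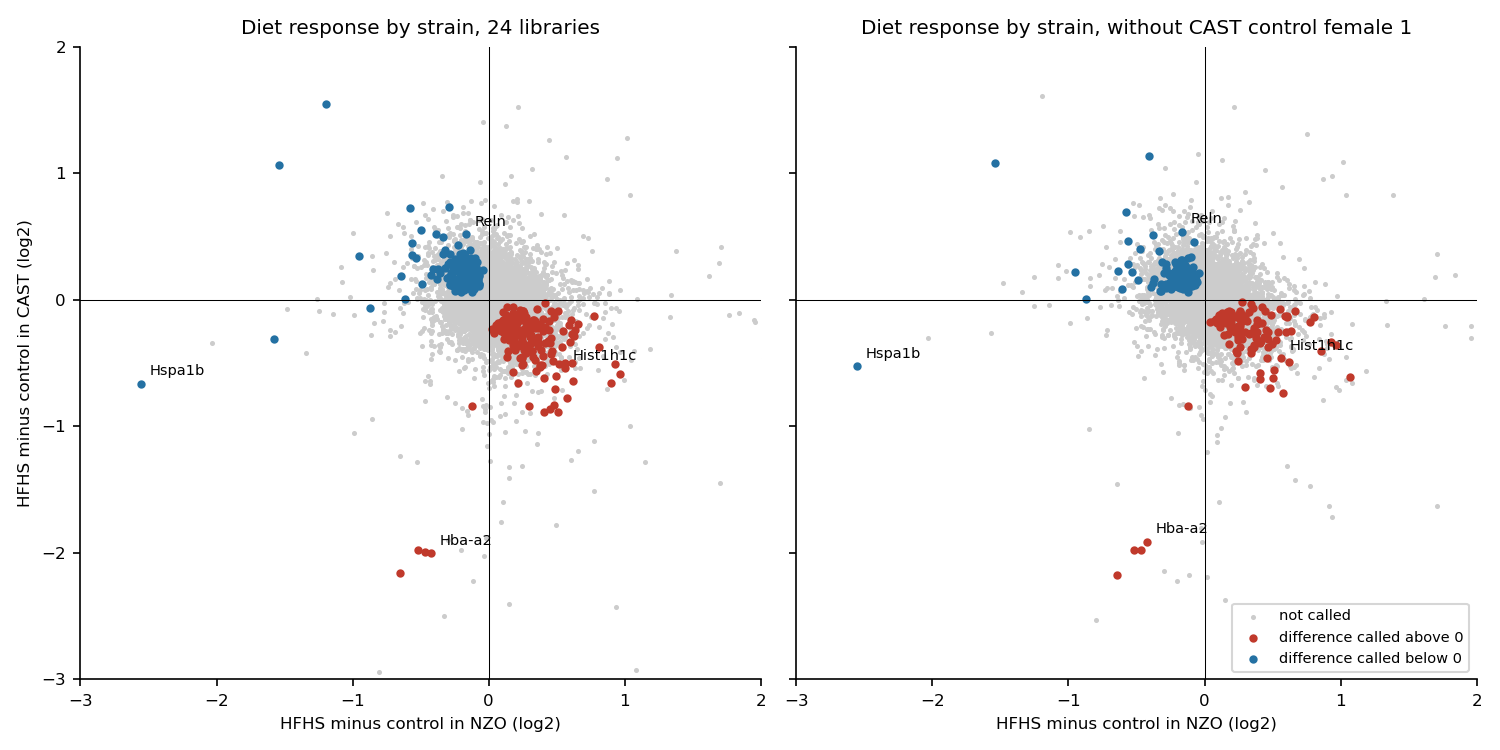
HFHS minus control change (log2) in NZO on the x axis and in CAST on the y axis for genes with a mean of at least 1 CPM, with all 24 libraries (left) and without CAST control female 1 (right). Red and blue points are genes whose strain difference was called above or below 0, and grey points were not called; 17 genes on the left and 16 on the right lie outside the axes. Called genes lie mainly in the 2 quadrants of opposite sign, with Hspa1b far to the left and globin genes such as Hba-a2 far below the rest.

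The 2 genes with the smallest p encode linker histones, the proteins that hold DNA where it enters and leaves a nucleosome. H1f0 (ENSMUSG00000096210, GRCm38 chr15:79028212-79030498, plus strand) encodes the variant typical of cells that no longer divide. Its level in NZO controls ran from 68.6 to 81.7 CPM with a median of 72.2, and in NZO HFHS libraries from 83.1 to 93.4 with a median of 85.9. In CAST it ran from 60.7 to 87.7 in controls (median 67.7) and from 56.5 to 64.4 under HFHS (median 58.8). All 6 NZO HFHS libraries stood above all 6 NZO controls, as in 0.743% of tested genes, while the CAST groups overlapped. The strain difference was 0.50 ± 0.07 (log2 ± SE; adjusted p = 0.00285), made of a rise of 0.26 ± 0.05 in NZO and a fall of 0.25 ± 0.05 in CAST (adjusted p = 0.0335 and 0.0471). Leaving out CAST control female 1 gave a difference of 0.46 ± 0.07 (adjusted p = 0.00662) and a CAST change with an adjusted p of 0.194.

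Hist1h1c (GRCm38 chr13:23738808-23740367, plus strand) encodes a second linker histone. It ran from 11.7 to 15 CPM in NZO controls (median 14.5) and from 17.3 to 25.6 under HFHS (median 21.1). In CAST its level was 11.2 to 24.1 CPM in controls (median 17.6) and 9.93 to 13.1 under HFHS (median 11.5). NZO groups did not overlap, and the highest CAST control was female 1. The strain difference was 1.10 ± 0.17 (adjusted p = 0.00285), and 1.02 ± 0.17 without that library (adjusted p = 0.00861).

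Mir22hg (GRCm38 chr11:75461539-75466676, plus strand), the host transcript of a microRNA, separated by diet in both strains. It ran from 8.04 to 10.2 CPM in NZO controls and from 11.2 to 13.1 in NZO HFHS libraries, with medians of 8.82 and 12.3. In CAST the controls ran from 8.16 to 9.24 CPM and the HFHS libraries from 6.75 to 8.12, with medians of 8.49 and 7.20. Neither pair of groups overlapped; all 6 HFHS libraries stood below all 6 controls in CAST for 0.294% of tested genes. The strain difference was 0.69 ± 0.11 both with and without CAST control female 1 (adjusted p = 0.0051 and 0.00861).

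**Figure D2:**
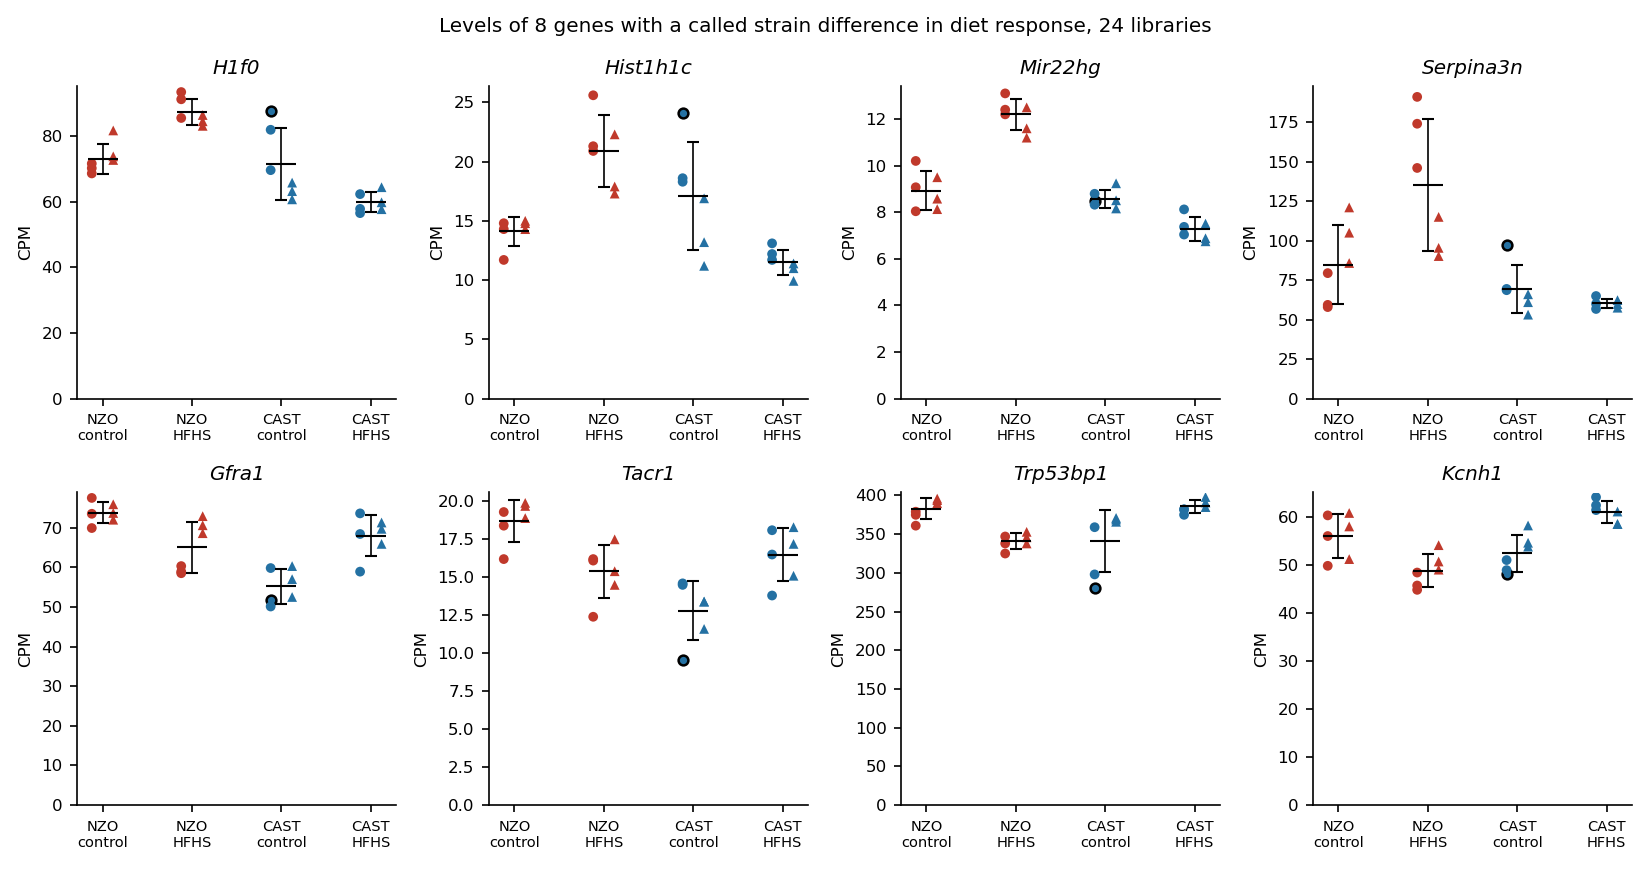
Level in CPM (y axis, from 0) of 8 genes with a called strain difference, by strain and diet (x axis), with circles for females, triangles for males and a black ring around CAST control female 1. Black bars are the mean ± SD of 6 libraries. In the top row the NZO HFHS mean stands above the NZO control mean and the CAST HFHS mean below the CAST control mean; in the bottom row the order is turned around, and Serpina3n differs between females and males within NZO.

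The other genes with the smallest p among those that were higher follow. Sspn (sarcospan, part of the dystrophin complex) had a strain difference of 0.76 ± 0.13, with an adjusted p of 0.009, and 0.71 ± 0.13 without CAST control female 1 (adjusted p = 0.0133). Shisa4, a membrane protein, had 0.53 ± 0.09, and 0.45 ± 0.08 without that library. Car14, a membrane carbonic anhydrase, had 0.91 ± 0.16, and 0.79 ± 0.14 without it. For all 3, the 6 NZO HFHS libraries stood above the 6 NZO controls and the CAST groups overlapped. That order in NZO held for 0.743% of tested genes and for 45 of the 361 called genes. The same shares apply to each gene below with this order. Gpr146, an orphan receptor known for a part in lipoprotein metabolism, ran from 19.6 to 22.8 CPM in NZO controls and from 24 to 26.8 under HFHS. Its strain difference was 0.39 ± 0.07 (adjusted p = 0.00926), and 0.38 ± 0.07 without that library. Cidea, a lipid droplet protein, had its larger change in CAST, from 1.95 to 4.74 CPM in controls to 0.937 to 1.87 under HFHS, a change of -0.84 ± 0.15 (adjusted p = 0.0184) that did not pass without CAST control female 1 (-0.69 ± 0.14, adjusted p = 0.0765). Its strain difference was 1.14 ± 0.21 with that library and 0.99 ± 0.19 without it (adjusted p = 0.00926 and 0.0133). S100a6, a calcium-binding protein of glia, had a difference of 0.82 ± 0.15 (adjusted p = 0.00926), and 0.73 ± 0.14 without the library. The strain differences of all of these kept an adjusted p below 0.05 in each of the 24 fits that left out 1 library.

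Ranked by p with CAST control female 1 left out, 4 further genes were among the first. Cirbp, an RNA-binding protein known to rise in the cold, ran from 48.9 to 69.3 CPM in NZO controls (median 57.6) and from 75.4 to 85.3 under HFHS (median 79.8). CAST libraries ran from 49.9 to 70.2 in controls (median 57.9) and from 39.2 to 53.8 under HFHS (median 43.5). The NZO groups did not overlap and the CAST groups did. The strain difference was 0.92 ± 0.16 (adjusted p = 0.0119), and 0.88 ± 0.16 with all libraries. Retsat, an enzyme that saturates retinol, had a difference of 0.43 ± 0.07 (adjusted p = 0.0119), and 0.53 ± 0.10 with all libraries. Its level in CAST controls (100 CPM or more) was far above that in NZO controls (16.1 CPM or less). Pllp, a myelin membrane protein, had 0.74 ± 0.14 (adjusted p = 0.0133), and 0.91 ± 0.17 with all libraries. Cxcl12, a chemokine of blood vessels and meninges, passed only without that library, in which it stood at 43.0 CPM against 83.3 to 113 in the other CAST controls. Its difference was 0.74 ± 0.13 without the library (adjusted p = 0.0119) and 0.58 ± 0.20 with it (adjusted p = 0.116). In NZO it ran from 27.5 to 44.4 CPM in controls and from 48.7 to 61.2 under HFHS, with no overlap.

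Among the genes that were lower, Gfra1 (GRCm38 chr19:58235604-58455909, minus strand), which encodes the receptor that binds GDNF, ran from 69.9 to 77.5 CPM in NZO controls (median 73.6) and from 58.5 to 72.9 under HFHS (median 64.4). In CAST it ran from 50.1 to 60.3 in controls (median 54.7) and from 58.9 to 73.6 under HFHS (median 69.0). Both pairs of groups overlapped. The strain difference was -0.49 ± 0.08 (adjusted p = 0.009), and -0.48 ± 0.09 without CAST control female 1 (adjusted p = 0.0119). Tacr1, the substance P receptor, had medians of 19.1 and 15.7 CPM in NZO controls and HFHS libraries and of 13.4 and 16.8 in CAST. The difference was -0.65 ± 0.13 (adjusted p = 0.0168), and -0.56 ± 0.11 without that library (adjusted p = 0.0144). Reln, the secreted glycoprotein reelin, changed mainly in CAST, from 55.9 to 75.6 CPM in controls to 85.1 to 109 under HFHS, without overlap. Its CAST change was 0.52 ± 0.10 (adjusted p = 0.0203), its NZO change -0.17 ± 0.10 (adjusted p = 0.581), and its strain difference -0.69 ± 0.14 (adjusted p = 0.0174). Without CAST control female 1 the CAST change was 0.54 ± 0.10 (adjusted p = 0.0416) and the strain difference -0.70 ± 0.14.

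The remaining genes of this ranking moved by smaller amounts. Kcnh1, a voltage-gated potassium channel, had a strain difference of -0.42 ± 0.08, and Elfn1, a postsynaptic adhesion protein, -0.48 ± 0.10. Magi2, a synaptic scaffold, had -0.27 ± 0.06 and Hpcal4, a neuronal calcium sensor, -0.37 ± 0.08. Trp53bp1, a DNA repair protein, ran from 361 to 396 CPM in NZO controls and from 325 to 353 under HFHS, and from 281 to 371 in CAST controls and from 375 to 398 under HFHS. For Trp53bp1 and Hpcal4 neither pair of groups overlapped, in opposite orders; all 6 HFHS libraries stood below all 6 controls in 0.853% of tested genes in NZO and above them in 0.344% in CAST. Trp53bp1 had a difference of -0.35 ± 0.06 and Dtx4, a ubiquitin ligase, -0.33 ± 0.07. Without CAST control female 1 the differences were -0.42 for Kcnh1 and Elfn1, -0.25 for Magi2, -0.32 for Hpcal4 and Dtx4 and -0.31 for Trp53bp1, with adjusted p between 0.0119 and 0.0249. With all libraries, the genes named here as lower had an adjusted p between 0.009 and 0.0174, and they stayed below 0.05 in each of the 24 fits that left out 1 library.

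The lower genes with the smallest p after CAST control female 1 was left out also held Csmd2, a synaptic membrane protein (-0.49 ± 0.09), and Kif26b, a kinesin-like protein (-0.44 ± 0.08). Nwd2 (-0.41 ± 0.08), Frmpd3 (-0.39 ± 0.08) and Elk1, a transcription factor of the growth factor response (-0.37 ± 0.08), were the others. For all 5 the left-out library was the lowest of the CAST controls, as at 34.2 CPM against 79.8 to 111 for Csmd2 and at 38.3 against 51.5 to 67.0 for Elk1. With all libraries the differences were -0.56 ± 0.13 for Kif26b, -0.50 ± 0.11 for Nwd2, -0.49 ± 0.11 for Frmpd3 and -0.44 ± 0.10 for Elk1. Csmd2 did not pass with all libraries (-0.66 ± 0.19, adjusted p = 0.059).

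Part of the heat shock genes fell under HFHS in NZO, 6 of 20 with all libraries and 14 of 20 without CAST control female 1, and 0 were called in CAST. Heat shock proteins refold damaged proteins, and most of their genes are switched on together by the factor HSF1, which binds inverted repeats of the letters GAA. Of 20 heat shock genes measured and tested, the strain difference was lower in 5 (Hspa1a, Hspa1b, Hsph1, Dnajb1 and Dnajb4) and higher in 0, where 0.838% of all genes were called lower. The list's median was -0.31, against 0.02 over all genes, and 18 of 20 estimates were below 0. With CAST control female 1 left out, 8 genes were lower and 0 higher, where 0.636% of all genes were called lower, and the median was -0.38. Those 8 kept 4 of the first 5, all but Hspa1a, and added Hspa8, Fkbp4, Stip1 and Ahsa1. The diet test in NZO called 0 of the 20 genes higher in either fit, and it called 0.0399% of all genes lower with all libraries and 0.196% without CAST control female 1.

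The upstream sequence of 4 of the genes called in this list is shown because each holds such an inverted pair. Letters run 5′ to 3′ along the gene's strand and end at the base before the annotated start, from RefSeq on GRCm38.p6, with matches to GAANNTTC or TTCNNGAA in capitals. Both patterns read the same on either strand. The windows are chr17:34959239-34959438 for Hspa1b, chr5:149636316-149636515 for Hsph1, chr6:128438657-128438856 for Fkbp4 and chr3:152193846-152194045 for Dnajb4, all on the minus strand, and where the table holds several starts the one with most matches was taken.
Hspa1b: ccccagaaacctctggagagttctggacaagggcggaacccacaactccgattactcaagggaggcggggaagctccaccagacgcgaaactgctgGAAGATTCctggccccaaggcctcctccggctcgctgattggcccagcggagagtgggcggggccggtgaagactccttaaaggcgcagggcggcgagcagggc
Hsph1: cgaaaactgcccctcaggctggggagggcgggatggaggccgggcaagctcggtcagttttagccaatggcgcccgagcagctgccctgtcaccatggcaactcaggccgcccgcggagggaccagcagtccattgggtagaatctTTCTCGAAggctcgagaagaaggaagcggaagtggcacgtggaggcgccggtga
Fkbp4: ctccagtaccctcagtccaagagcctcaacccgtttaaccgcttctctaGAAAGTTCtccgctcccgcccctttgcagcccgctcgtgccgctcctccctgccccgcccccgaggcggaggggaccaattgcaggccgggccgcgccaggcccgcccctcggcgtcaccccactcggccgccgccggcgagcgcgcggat
Dnajb4: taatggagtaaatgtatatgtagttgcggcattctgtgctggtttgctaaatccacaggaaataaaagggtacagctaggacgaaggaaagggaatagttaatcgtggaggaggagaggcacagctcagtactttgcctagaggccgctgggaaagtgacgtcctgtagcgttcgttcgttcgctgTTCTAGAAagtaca

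The match began 104 bases before the start in Hspa1b, 54 in Hsph1, 151 in Fkbp4 and 14 in Dnajb4. In windows from 250 bases before to 50 after each start, a match was found in 11 of the 16 heat shock genes with an entry (68.8%). The share was 14.2% of 13010 tested genes with an entry, 17% of all 27025 genes and 15.1% of 32851 windows in the table. The list was made of heat shock genes, so its share describes the list and not the response to diet. Of the genes whose strain difference was called in either fit, Dnajb1, Stip1 and Ahsa1 held no match. Of those not called, Bag3, Chordc1, Dnaja1, Hspb1, Hspd1 and Hspe1 each held a match, and Hspa4 and Hspa4l did not. All of these are letter matches in the reference strain's sequence. Binding was not measured, and the strains' own sequences were not used.

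The separation in NZO was wide for the inducible HSP70 genes, and not for every gene of the list. The diet test did not call Bag3 (-0.14 ± 0.14, adjusted p = 0.814) or Cryab (-0.29 ± 0.15, adjusted p = 0.531) in NZO. Their strain differences, 0.17 ± 0.20 and 0.05 ± 0.22, were the 2 estimates above 0 with all libraries. Without CAST control female 1 they were 0.01 ± 0.18 and -0.22 ± 0.16. Hspa1b, an inducible HSP70, ran from 15 to 52.6 CPM in NZO controls (median 24) and from 3.84 to 5.73 under HFHS (median 4.64). In CAST its level was 4.24 to 28.7 in controls (median 22.2) and 9.07 to 18.1 under HFHS (median 11.8). The lowest CAST control was male 1, which lay below every other library outside the NZO HFHS group. The NZO change was -2.55 ± 0.38 (adjusted p = 0.00272), the CAST change -0.66 ± 0.35 (adjusted p = 0.327) and the strain difference -1.89 ± 0.51 (adjusted p = 0.0487). Leaving out CAST control female 1 gave -2.03 ± 0.52 for the strain difference (adjusted p = 0.0465). Hspa1a, its near-identical neighbour, with which it may share reads, had an NZO change of -1.57 ± 0.24 and a difference of -1.26 ± 0.33 (adjusted p = 0.0484), which did not pass without that library (-1.31 ± 0.35, adjusted p = 0.0506).

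Hsph1, an HSP110 that recharges HSP70, ran from 383 to 514 CPM in NZO controls (median 464) and from 289 to 314 under HFHS (median 303). CAST libraries ran from 332 to 518 in controls (median 427) and from 389 to 465 under HFHS (median 433), with full overlap. Its strain difference was -0.62 ± 0.14 (adjusted p = 0.0248), and -0.69 ± 0.13 without CAST control female 1 (adjusted p = 0.0149). Dnajb1, an HSP40 partner, had a difference of -0.81 ± 0.21 (adjusted p = 0.0484) and Dnajb4 -0.31 ± 0.08 (adjusted p = 0.0487). Without that library they had -0.87 ± 0.22 (adjusted p = 0.0391) and -0.33 ± 0.09 (adjusted p = 0.0496). Fkbp4, a co-chaperone of steroid receptors, had -0.39 ± 0.08 without it (adjusted p = 0.0238) and -0.33 ± 0.09 with it (adjusted p = 0.0603). The calls for Hspa1b, Hspa1a, Dnajb1 and Dnajb4 sat close to the threshold. Each was lost in most fits that left out 1 library: called in 4, 4, 5 and 8 of 24, with adjusted p up to 0.0926 for Hspa1b and Dnajb1. Hsph1 was called in 23 of 24.

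Summed over the 20 genes, levels ran from 6920 to 8160 CPM in NZO controls and from 6090 to 6390 under HFHS, without overlap. In CAST they ran from 5750 to 7360 CPM in the controls other than female 1, 9560 in that library, and 6590 to 7440 under HFHS. Of 20 genes of the unfolded protein response, the stress program of the endoplasmic reticulum, 1 had a lower strain difference (Sel1l, -0.19 ± 0.05, adjusted p = 0.0487) and 0 a higher one. Over all genes 0.838% were called lower, and 0.636% without CAST control female 1. Without that library 0 genes of this list were called (Sel1l -0.16 ± 0.05, adjusted p = 0.07). The list's median was -0.14, and -0.19 without that library.

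**Figure D3:**
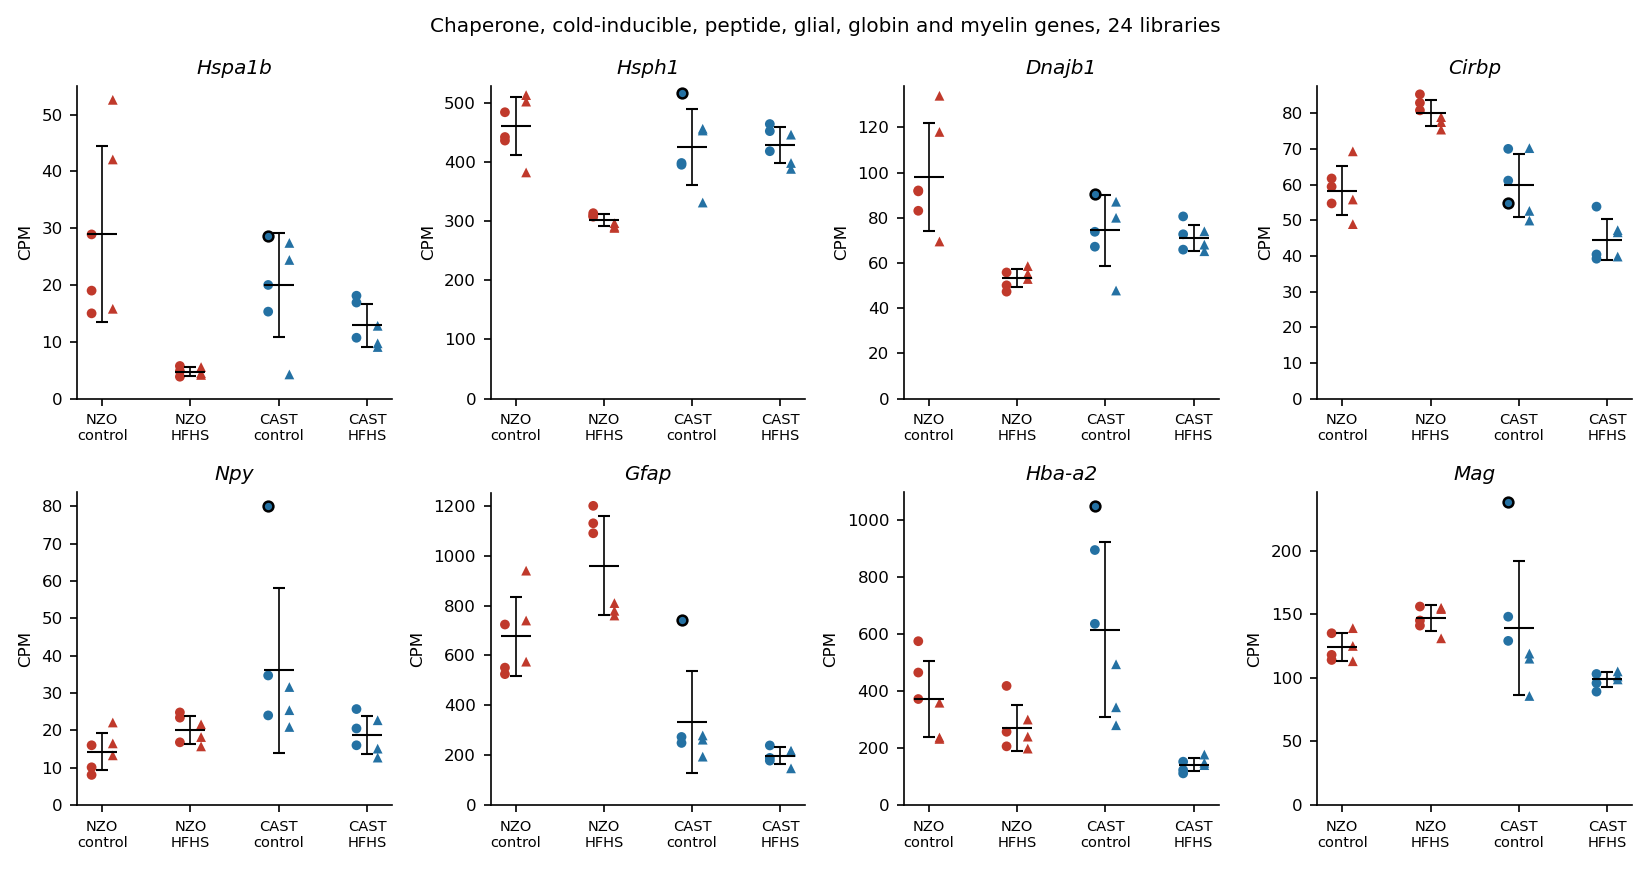
Level in CPM (y axis, from 0) of 8 genes by strain and diet (x axis), with circles for females, triangles for males, a black ring around CAST control female 1 and black bars for the mean ± SD of 6 libraries. The chaperones Hspa1b, Hsph1 and Dnajb1 separate by diet in NZO, Hba-a2 in CAST, and for Npy, Gfap and Mag the ringed library is the highest CAST control.

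Of 10 red blood cell markers, the diet test called 5 lower and 0 higher in CAST with and without CAST control female 1, where 0.0798% and 0.0293% of all genes were called lower. Hba-a2 (alpha globin) ran from 280 to 1050 CPM in CAST controls (median 565) and from 111 to 177 under HFHS (median 144). In NZO it ran from 232 to 575 in controls (median 366) and from 198 to 418 under HFHS (median 248). CAST groups did not overlap and NZO groups did. The CAST change was -2.0 ± 0.22 (adjusted p = 1.06e-05), the NZO change -0.43 ± 0.22 (adjusted p = 0.504) and the strain difference 1.58 ± 0.31 (adjusted p = 0.0168), or 1.49 ± 0.31 without CAST control female 1 (adjusted p = 0.0197). Hbb-bs, a beta globin, had a CAST change of -2.0 ± 0.23 and a difference of 1.53 ± 0.31 (adjusted p = 0.0174), and 1.51 ± 0.32 without that library. Globin copies are nearly identical and may share reads.

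Of the same 10 markers, all tested, 6 had a higher strain difference and 0 a lower one with and without CAST control female 1, where 0.962% and 0.631% of all genes were called higher. They were Hbb-bs, Hbb-bt, Hba-a2, Alas2 (the first enzyme of heme synthesis in red cells), Fech (its last enzyme) and Ube2l6 (a ubiquitin-family conjugating enzyme). The list's median difference was 1.09 in both fits. By sex the list's median was 1.385 in females and 0.715 in males, and 1.397 and 0.716 without CAST control female 1. Its summed level was 658 to 1900 CPM in CAST controls other than female 1, 1980 in that library, 336 to 479 in CAST HFHS libraries, 808 to 1890 in NZO controls and 714 to 1290 in NZO HFHS libraries. Nothing in the labels says how much blood the tissue pieces held, and its part in the result was not tested.

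The diet test also named genes outside these groups. In NZO, Stom (stomatin, a membrane protein) rose by 0.44 ± 0.08 (adjusted p = 0.0111), with a strain difference of 0.61 ± 0.11. Adamtsl1, a secreted matrix protein, rose by 0.59 ± 0.11 in NZO (adjusted p = 0.0118), with a difference of 0.79 ± 0.15. Prdm15, a zinc finger protein, changed by -0.38 ± 0.08 in NZO (adjusted p = 0.0366), with a difference of -0.54 ± 0.11. In CAST, Dclk3, a kinase, rose by 0.33 ± 0.07 (adjusted p = 0.0444), with a difference of -0.43 ± 0.10. Ttc21b, a part of the ciliary transport complex IFT-A, rose by 0.30 ± 0.06 (adjusted p = 0.0444), with a difference of -0.39 ± 0.09. Ift172, of the IFT-B complex, had a difference of -0.26 ± 0.06, and these were the 2 genes called lower among 20 cilium genes, with 0 higher, in both fits (0.838% and 0.636% of all genes called lower). The cilium list's median was -0.08, and -0.10 without CAST control female 1. Without that library the strain differences were 0.53 ± 0.10 for Stom, 0.72 ± 0.15 for Adamtsl1, -0.51 ± 0.11 for Prdm15, -0.44 ± 0.10 for Dclk3, -0.35 ± 0.08 for Ttc21b and -0.23 ± 0.05 for Ift172, all called. The CAST changes of Dclk3 and Ttc21b did not pass without CAST control female 1 (adjusted p = 0.0765 and 0.174).

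Of 15 genes of reactive glia, the strain difference was higher in 6 (Gfap, Vim, Serpina3n, C4b, Cd44 and S1pr3) and lower in 0, where 0.962% of all genes were called higher, and the list's median was 0.54. After leaving out CAST control female 1, it was higher in 3 (Gfap, Vim and Serpina3n) and lower in 0, where 0.631% of all genes were called higher, with a median of 0.48. By sex the list's median was 0.896 in females and 0.138 in males, and 0.885 and 0.141 without CAST control female 1. Whether a list differed between the sexes was not tested. Of the 15 estimates, 13 were above 0 in both fits, the exceptions being Stat3 at -0.01 and Hspb1 at -0.87 ± 0.29 (adjusted p = 0.105). Hspb1, a small heat shock protein that is also in the heat shock list, was called lower in NZO (-0.99 ± 0.21, adjusted p = 0.0366). Its difference without that library was -0.81 ± 0.30 (adjusted p = 0.16). Gfap, the intermediate filament of astrocytes, ran from 525 to 940 CPM in NZO controls (median 649) and from 760 to 1200 under HFHS (median 951). In CAST it ran from 194 to 743 in controls (median 268) and from 147 to 239 under HFHS (median 201). Both pairs overlapped, and the CAST value of 743 was female 1, with the other 5 controls at 279 or less. The difference was 1.19 ± 0.25 (adjusted p = 0.0207), and 0.84 ± 0.17 without that library (adjusted p = 0.019). C4b, a complement component, rose in NZO by 0.46 ± 0.09 (adjusted p = 0.0335). Its strain difference was 0.54 ± 0.13 (adjusted p = 0.033), and 0.45 ± 0.12 without the library (adjusted p = 0.0534).

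Of 13 myelin genes, the strain difference was higher in 4 (Mag, Cnp, Opalin and Trf) and lower in 0, against 0.962% of all genes called higher, with a median of 0.63 and all 13 estimates above 0. With female 1 of the CAST controls left out, it was higher in 3 (Mag, Cnp and Opalin) and lower in 0, against 0.631% of all genes, with a median of 0.43. By sex the median was 0.962 in females and 0.268 in males, and 0.595 and 0.271 with female 1 left out. Mag, an adhesion protein of the inner myelin membrane, ran from 113 to 139 CPM in NZO controls (median 121) and from 131 to 156 under HFHS (median 149). In CAST its level was 85.7 to 238 in controls (median 124) and 89.1 to 105 under HFHS (median 99.8), with 238 in female 1. The difference was 0.70 ± 0.16 (adjusted p = 0.0248), and 0.54 ± 0.13 without that library (adjusted p = 0.0314). The list's summed level was 2340 to 3890 CPM in the other CAST controls, 6780 in that library, and 2320 to 3190 under HFHS. In NZO it was 3580 to 4600 in controls and 4140 to 4880 under HFHS. The amount of white matter in each piece was not measured.

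The next lists are to be read against the same 0.962% of all genes called higher with all libraries and 0.631% without CAST control female 1. Among 12 astrocyte markers, 3 were higher (Agt, S100b and Aldoc) and 0 lower with all libraries, and 1 (S100b) and 0 without CAST control female 1. Of 12 tanycyte markers, 1 was higher (Vim) and 0 lower, and 2 (Vim and Frzb) and 0 without it. Tapbp and Tap2, which load and transport peptides for MHC class I, were the 2 genes higher among 15 of antigen presentation, with 0 lower and a median of 0.54. Without that library 1 was higher (Tapbp, 0.37 ± 0.08, adjusted p = 0.0249) and 0 lower, with a median of 0.44. The summed level of this list was 202 and 198 CPM in NZO control female 1 and male 1. It was 240 to 262 in the other NZO controls and 243 to 313 in NZO HFHS libraries. In CAST it was 143 to 194 in controls other than female 1, 224 in that library and 136 to 143 under HFHS. None of 13 microglia markers was called in either fit, although all 13 estimates were above 0 in both. The microglia median was 0.512 in females and -0.022 in males, and 0.297 and -0.021 without CAST control female 1.

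Vascular and matrix lists held more called genes when CAST control female 1 was left out, while over all genes the share called higher went from 0.962% to 0.631%. Of 14 endothelial markers 0 were called with all libraries, and 2 were higher (Kdr and Itm2a) and 0 lower without it. Kdr, a VEGF receptor, ran from 13.1 to 19.6 CPM in NZO controls and from 20.1 to 27.5 under HFHS, without overlap. It ran from 14.7 to 20.8 in the other CAST controls, at 11.2 in female 1, and from 11.7 to 22.1 under HFHS. Its NZO change was 0.56 ± 0.12 (adjusted p = 0.0381) and its strain difference 0.55 ± 0.17 (adjusted p = 0.0761), or 0.63 ± 0.15 without that library (adjusted p = 0.0349). Mmp2, a gelatinase, had 0.76 ± 0.17 (adjusted p = 0.0236) and was the 1 gene higher among 15 of the extracellular matrix, with 0 lower. Without the library Mmp2 had 0.73 ± 0.17 and Col6a1 was called as well (0.57 ± 0.13), both with an adjusted p of 0.0314. The matrix list's summed level was 713 and 718 CPM in NZO control female 1 and male 1. It was 878 to 922 in the other NZO controls and 895 to 1040 in NZO HFHS libraries. In CAST it was 746 to 971 in controls other than female 1, 574 in that library and 791 to 905 under HFHS. Of 16 pericyte, vascular muscle and fibroblast markers, 0 were called with all libraries, and 1 (Rgs5) was higher and 0 lower without it. The summed level of that last list ran from 226 to 486 CPM in NZO controls, 420 to 598 in NZO HFHS libraries, 243 to 499 in the other CAST controls, 167 in female 1 and 298 to 443 in CAST HFHS libraries. The part of vessel content in these results was not tested.

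**Figure D4:**
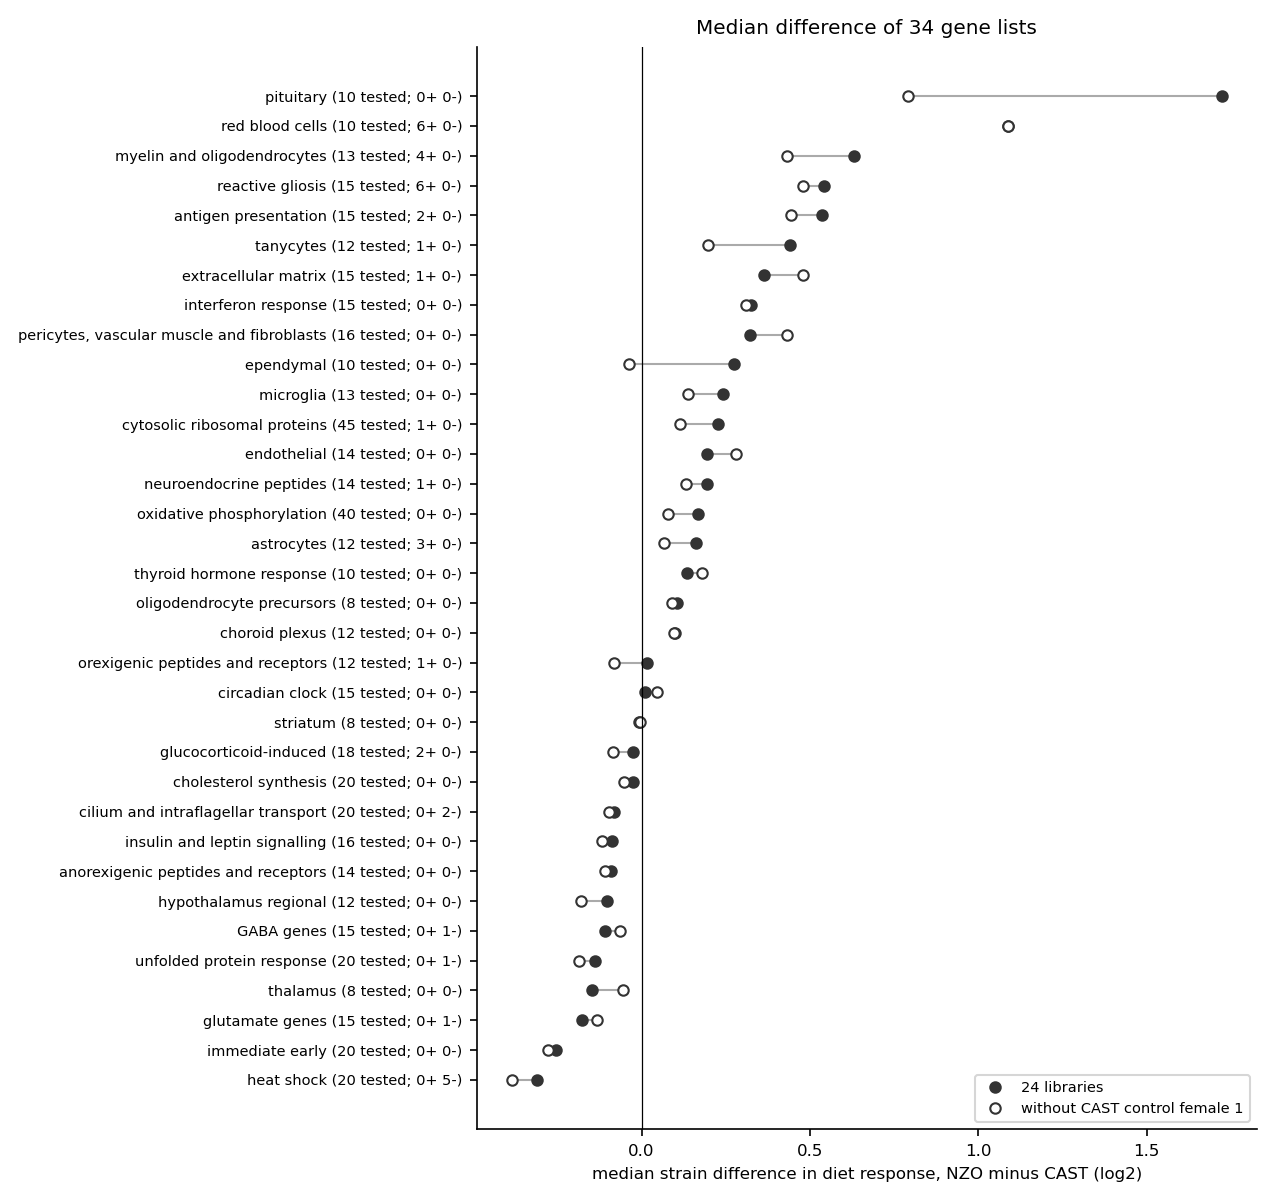
Median strain difference (log2, x axis) of 34 gene lists, with filled circles for all 24 libraries and open circles without CAST control female 1; labels give the genes tested and, with all libraries, how many were called higher (+) and lower (-). The pituitary list moves most between the fits, the red blood cell list stays at 1.09, and the heat shock list has the lowest median.

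Among genes of feeding, Npy was the 1 gene called. Npy (GRCm38 chr6:49822710-49829507, plus strand) encodes neuropeptide Y, which arcuate neurons release to drive eating. It ran from 8.06 to 22.1 CPM in NZO controls (median 14.6) and from 15.7 to 24.8 under HFHS (median 19.9). CAST libraries ran from 20.9 to 80.1 in controls (median 28.5) and from 12.7 to 25.7 under HFHS (median 18.2), with 80.1 in female 1 and at most 34.7 in the other 5. Both pairs of groups overlapped. Its strain difference was 1.40 ± 0.31 (adjusted p = 0.0246), and 1.07 ± 0.26 without that library (adjusted p = 0.0331). Neither diet change passed alone (NZO 0.51 ± 0.22, adjusted p = 0.406; CAST -0.89 ± 0.22, adjusted p = 0.0815). Agrp, made in the same neurons, had a difference of 1.13 ± 0.38 (adjusted p = 0.105), and 0.87 ± 0.36 without that library (adjusted p = 0.214).

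Over 12 orexigenic peptides and receptors, 1 (Npy) was higher and 0 lower in both fits, against 0.962% and 0.631% of all genes called higher, with a median of 0.02, or -0.08 without CAST control female 1. Of 14 anorexigenic peptides and receptors, 0 were called in either fit, with a median of -0.09, or -0.11 without that library. Among 14 neuroendocrine peptides, Avp (vasopressin) was the 1 called higher, at 1.11 ± 0.29 (adjusted p = 0.0463), and 0 were called without CAST control female 1 (Avp 0.87 ± 0.26, adjusted p = 0.0838). Of 16 genes of insulin and leptin signalling, 0 were called in either fit, with medians of -0.09 and -0.12.

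Transmitter lists held 2 called genes with all libraries and 1 without CAST control female 1, where 0.838% and 0.636% of all genes were called lower. Gad2, which makes GABA, had medians of 485 and 416 CPM in NZO controls and HFHS libraries and of 414 and 493 in CAST, with overlap in both strains. Its strain difference was -0.44 ± 0.11 (adjusted p = 0.043), and -0.46 ± 0.12 without that library (adjusted p = 0.046). It was the 1 gene lower among 15 GABA genes, with 0 higher, in both fits. Gria1, an AMPA receptor subunit, was the 1 lower among 15 glutamate genes (-0.20 ± 0.05, adjusted p = 0.043), with 0 higher, and did not pass without CAST control female 1 (-0.18 ± 0.05, adjusted p = 0.0562). Mt1 and Mt2, metallothioneins that bind zinc and respond to glucocorticoids, were the 2 higher among 18 glucocorticoid-induced genes, with 0 lower, in both fits (0.962% and 0.631% of all genes called higher). Their differences were 0.78 ± 0.16 and 0.90 ± 0.19 (adjusted p = 0.0174 and 0.0188), and 0.60 ± 0.12 and 0.68 ± 0.14 without that library. The list's own median was -0.03, and -0.09 without it.

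Immediate early genes, which report recent cell activity, gave 0 calls of 20 in either fit, with medians of -0.26 and -0.28 and with 16 and 17 estimates below 0. Fosb changed in NZO by -2.04 ± 0.44 (adjusted p = 0.0444), and its strain difference was -1.70 ± 0.60 (adjusted p = 0.118), or -1.73 ± 0.63 without CAST control female 1 (adjusted p = 0.149). Of 45 ribosomal protein genes 1 was higher (Rplp0, 0.29 ± 0.07, adjusted p = 0.0407) and 0 lower, where 0.962% of all genes were called higher. Without CAST control female 1 the count was 0 (Rplp0 0.22 ± 0.06, adjusted p = 0.0505). Of 40 oxidative phosphorylation genes 0 were called in either fit. Their medians went from 0.23 to 0.11 and from 0.17 to 0.08 when CAST control female 1 was left out. The summed ribosomal level in that library was 11600 CPM, against 6780 to 8240 in the other CAST controls. Pituitary markers had a median of 1.72 over the 10 tested of 12, and 0.79 without that library, with 0 called in both fits. In males, where CAST control male 1 was kept, their median was 1.60 in both fits. Lists of cholesterol synthesis, interferon response, the circadian clock, thyroid hormone response, choroid plexus, ependyma, oligodendrocyte precursors, thalamus, striatum and hypothalamic regions gave 0 calls in both fits.

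Within females alone the strain difference was called for 346 genes (1.73%; 196 higher, 0.977%, and 150 lower, 0.748%). Without CAST control female 1 it was called for 22 genes (0.108%; 15 higher, 0.0734%, and 7 lower, 0.0342%). Within males the edgeR test called 0 genes (0%) with or without that library, which is no part of the male comparison but adds to the shared spread. At an unadjusted p under 0.05 it found 1340 genes in males with all libraries and 1756 without that library. In males, DESeq2 called 3 genes and limma 0 with all libraries, and 12 and 0 without it. The female and male differences share no library, so one can be read against the other. Of the 346 genes called in females, 304 (87.9%) had the same sign in males, where 60.7% of all tested genes did. Without CAST control female 1 this was 20 of 22 (90.9%), against 61.3%.

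The 10 named genes with the smallest p in males did not pass. With all libraries, Mir22hg among them had 0.72 in males and 0.65 in females, Shisa4 0.49 and 0.56, Car14 0.93 and 0.90, and Tacr1 -0.71 and -0.59 (all log2). In that fit, whose female values rest in part on CAST control female 1, Kdr had 1.09 ± 0.24 in males (adjusted p = 0.36) and 0.01 in females. Nbr1, an autophagy receptor, had the smallest adjusted p in males, 0.21, with a difference of -0.76 ± 0.15 there and 0.08 in females.

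The test of whether the strain difference itself differed between the sexes called 1 gene of 20053 (0.00499%), Serpina3n. This secreted protease inhibitor (GRCm38 chr12:104406729-104414329, plus strand), a marker of reactive astrocytes, is 1 of a cluster of near copies, among which reads may be shared. In NZO females it stood at 59.3, 57.9 and 79.4 CPM in controls and 191, 174 and 146 under HFHS. In NZO males it stood at 85.8, 121 and 105 CPM in controls and 95.4, 90.2 and 115 under HFHS. Diet groups were thus far apart in NZO females and mixed in NZO males. In CAST it stood at 97.4, 69.4 and 68.6 CPM in female controls and 56.7, 60 and 64.9 under HFHS, with 97.4 in female 1. CAST males stood between 53.1 and 66.0 CPM on either diet. The strain difference was 1.75 ± 0.22 in females and -0.05 in males, and the female minus male value was 1.80 ± 0.30 (adjusted p = 0.0349). Without CAST control female 1 it was 1.61 ± 0.29 (adjusted p = 0.0974), and 0 genes were called. With all libraries, CAST control female 1 among them, S100a6 had a strain difference of 1.53 in females and 0.11 in males, and H1f0 0.80 and 0.21. Neither passed the test of the sexes (adjusted p = 0.369 and 0.666).

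**Figure D5:**
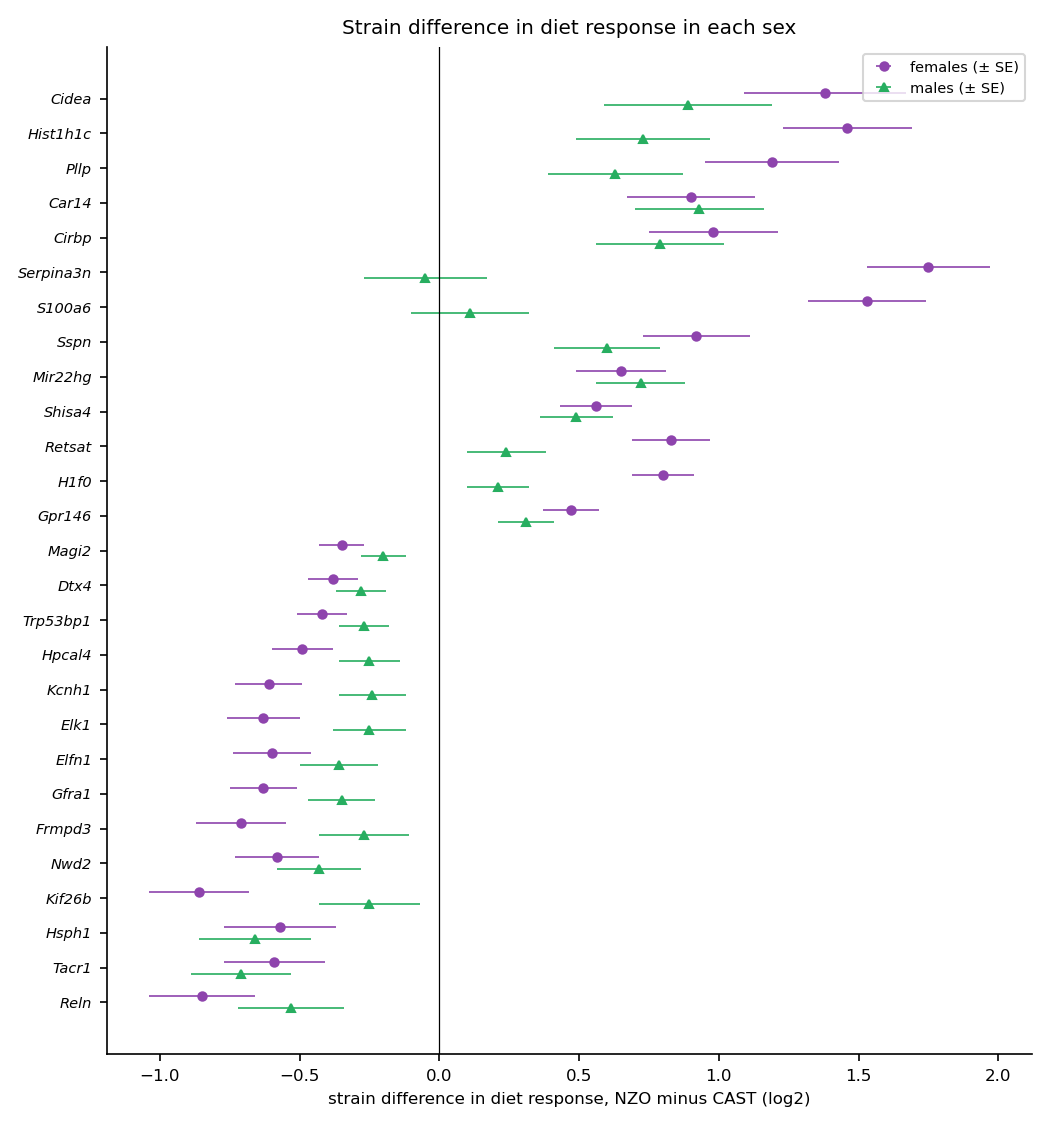
Strain difference in diet response (log2 ± SE, x axis) in females (purple circles) and males (green triangles) for 27 genes among those with the smallest p and called with all 24 libraries. Both sexes lie on the same side of 0 for every gene shown except Serpina3n, at 1.75 in females and -0.05 in males.

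C57BL/6J has no part in the contrast of the strain difference, but its libraries add to the shared spread. In C57BL/6J the edgeR diet test called 0 genes (0%) with and without CAST control female 1. At an unadjusted p under 0.05 it found 687 and 961 genes, and no other tool was run on this strain. Its diet estimate was above 0 for 114 of the 193 genes that were higher (59.1%) and for 76 of the 168 that were lower (45.2%), against 51.0% of all tested genes. For Hsph1 it was -0.04, for H1f0 0.02, for Gfra1 -0.11 and for Serpina3n 0.39 (log2).

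The number of genes called moved with single libraries. Leaving out each of the 24 in turn gave 78 to 2211 genes, with a median of 150.5, and 18 of the 24 counts differed from 361 by over 1.5 times. The count was 2211 without CAST control female 2. It was 78 without NZO control female 1, 147 without NZO control female 2, 94 without NZO control male 1 and 163 without NZO control male 2. It was 127, 177 and 109 without NZO HFHS female 1, 2 and 3, and 104 and 78 without NZO HFHS male 1 and 2. It was 133 and 215 without CAST control male 1 and 2, 149, 139 and 113 without CAST HFHS female 1, 2 and 3, and 106, 152 and 152 without CAST HFHS male 1, 2 and 3. Leaving out CAST control females 1 and 3 together gave 49 genes, and NZO control female 1 and male 1 together 8. No called named gene changed sign in any alternative. H1f0, Hist1h1c, Mir22hg, Sspn, Shisa4 and Gfra1 passed in all 36 alternative fits, the 6 of 72 called named genes that did.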

How the data were processed

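Polyadenylated RNA of whole hypothalamus was sequenced in 36 libraries, 3 for each strain, diet and sex. The authors deposited a table of expected counts per gene, per the file headers, and a second of log2 values after a variance-stabilizing transformation (VST) with DESeq2, per the submitters' processing notes, which also name GRCm38. No source used here names the aligner or counting tool, or says whether counting used strand.

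The deposited expected counts were rounded before testing, where the design assumed whole counts: 21% were not whole within 0.001, and library totals moved by at most 0.000186%. CPM are TMM-scaled values computed here. edgeR 4.0.16 (R 4.3.3) filtered 24265 genes with filterByExpr, left 20053, and fitted 12 group means over 36 libraries (24 residual degrees of freedom) with quasi-likelihood F-tests. p-values were adjusted by Benjamini-Hochberg over all tested genes. limma 3.58.1, DESeq2 1.42.0 and sva 3.50.0 gave alternatives. The fit was also run on counts simulated from its own model, which cannot show how it handles outlying libraries.

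Named genes were called ones averaging 1 CPM or more: up to 10 per direction by p with and without CAST control female 1, up to 6 per direction for each diet test, up to 4 by p of each list, and where a test called none, the 10 with the smallest p. Other list members were named after their values were seen. Members and lists were chosen with earlier results of these data known. Promoter windows came from RefSeq, GRCm38.p6, and transcript lengths, the median over a gene's transcripts, from the GENCODE annotation of GRCm38. Results that need certain genes or lists are not reported here.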

Additional observations from a re-analysis of the deposited data

Results flagged for a closer look

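The strain difference is itself a difference between 2 groups' diet effects, with 361 genes called. With all libraries, Serpina3n is the 1 gene whose strain difference differed between females and males by the edgeR test, by 1.80 on the log2 scale. Without CAST control female 1 that test called 0 genes, with a smallest adjusted p of 0.0974. DESeq2 called 5 genes with all libraries, and edgeR on the 24 libraries alone called 2.

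In each of the 4 groups of 6 libraries, 50 genes of the report were examined for a single library far from the others, and 14 of 200 sets held one. The nominal rate is about 1 in 20. The genes were chosen from these data and the 200 sets share the same 24 libraries, so the count cannot be judged against that rate. Of the 14, 9 were CAST control female 1: it was the highest CAST control for Serpina3n (97.4 CPM), Retsat (162), Pllp (49.0), Mt1 (209), Mt2 (186), Gfap (743) and Npy (80.1), and the lowest for Nwd2 (12.7) and Frmpd3 (60.4). The other 5 were in different libraries. NZO control female 1 was low for Hist1h1c (11.7 CPM), NZO control male 3 high for Cidea (5.56), NZO HFHS female 1 high for Magi2 (108), NZO control female 2 high for Hpcal4 (448) and CAST HFHS female 3 high for Agrp (8.21).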

How the results depend on the processing

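Starting from 361 genes, DESeq2 called 880, no filter on low counts 236, the 24 libraries alone 234, an additive sex term 178 and 2 surrogate variables 180, and leaving out 1 library 78 to 2211. Alternatives chosen after seeing the data gave 228 (a transcript length offset with CAST control female 1 left out), 49 (CAST control females 1 and 3 left out) and 8 (NZO control female 1 and male 1 left out). In females, DESeq2 called 1012 genes, the 24 libraries alone 134, and 22 without CAST control female 1. In males, DESeq2 called 3 and the 24 libraries alone 1. The test between the sexes gave 5, 2 and, without CAST control female 1, 0. Without that library the diet test gave 98 in NZO and 9 in CAST, and DESeq2 710 for the strain difference. Size factors (362), limma on VST values (416), a strict filter (487), a transcript length offset (254) and the 24 libraries without that one (412) stayed within 1.5 times. The cause of these shifts was not tested. Of 2592 values of 72 called named genes, 1938 stayed past the threshold and 654 fell short, with 0 reversed; of 1260 list medians 31 moved by more than the spread between replicates.

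No paired analysis was possible because the labels give libraries no replicate numbers that groups share. With 3 libraries per strain, diet and sex, depth limits low genes most, and differences within 1 sex are the least precise.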

Other observations

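A few genes with a called strain difference belonged to none of the groups above. Rxfp3, the receptor of the brain peptide relaxin-3, ran from 10.5 to 13.5 CPM in NZO controls and from 8.96 to 10.5 in NZO HFHS libraries, and its strain difference was -0.58 ± 0.12 on the log2 scale (edgeR, adjusted p = 0.0174), and -0.54 ± 0.12 without CAST control female 1. H2-M3, a class I molecule that presents formylated peptides, ran from 1.89 to 2.77 CPM in NZO controls and from 2.87 to 3.65 under HFHS, without overlap, and its difference was 0.76 ± 0.15 (adjusted p = 0.0174), and 0.75 ± 0.16 without that library. Suv420h2, a histone H4 methyltransferase, ran from 24.6 to 26.4 CPM in NZO controls and from 18.5 to 22.3 under HFHS, without overlap, and its difference was -0.47 ± 0.10 (adjusted p = 0.0188), and -0.41 ± 0.09 without it. Cobl, an actin nucleator of neurons, had a difference of -0.29 ± 0.06 (adjusted p = 0.0207), and -0.28 ± 0.06 without it. Rsrp1, a splicing-related protein, ran from 218 to 264 CPM in NZO controls and from 294 to 351 under HFHS, and its difference was 0.45 ± 0.11 (adjusted p = 0.0412), and 0.47 ± 0.11 without it. All but Rsrp1, which was called in 6, were called in each of the 24 fits that left out 1 library.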
